A study of Mus musculus with 4 samples.

Results

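The 7 tubulin genes described here, Tuba1a, Tuba1b, Tuba1c, Tubb2a, Tubb2b, Tubb3 and Tubb5, were taken by name from the 22367 protein-coding genes of the mouse annotation, and each was followed from the gene to 50 kb on each side. Chromatin came from the mouse neural stem cell (NSC) line NS-5, kept untreated in medium with the growth factors EGF and FGF2. It was precipitated with antibodies against Med1, Carm1 or Jmjd1c, or with control IgG, with 1 sample for each antibody and 4 samples in all. No replicate error can therefore be given for any value, groups of samples could not be tested, and every comparison below is a description of these samples. The study's methods say that replicates were merged where a data set had several, without naming the samples this applied to.

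Tubulin is the building block of microtubules, the hollow filaments that pull chromosomes apart in dividing cells and carry cargo along neurites. Each block is a pair of an alpha- and a beta-tubulin, and both families are encoded by several genes with very similar coding sequence. In the developing brain Tuba1a, Tubb2b, Tubb3 and Tubb5 are needed for neuronal migration, and changes in their human counterparts cause malformations of the cortex. Tubb3 is widely used as a marker of neurons, while Tuba1b and Tubb5 are expressed in most dividing cells. Med1 is a subunit of Mediator, the complex that connects transcription factors at enhancers with RNA polymerase II at promoters. Carm1 is an arginine methyltransferase and Jmjd1c a member of the histone lysine demethylase family, and both act as transcriptional coregulators.

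The genes lie at 4 loci of mouse genome build mm9. On chromosome 15 Tuba1b (98761856 to 98764996, minus strand) and Tuba1a (98780272 to 98783982, minus strand) follow each other with transcription start sites (TSSs) 18986 bp apart, and Tuba1c (98860322 to 98868536, plus strand) starts 76340 bp from the TSS of Tuba1a in the opposite direction. On chromosome 13 Tubb2a (34166170 to 34169877) and Tubb2b (34218877 to 34222223) lie on the minus strand with TSSs 52346 bp apart. Tubb3 is on chromosome 8 (125935324 to 125945915, plus strand) and Tubb5 on chromosome 17 (35970871 to 35975251, minus strand). The windows of neighbouring genes overlap, so the genes of a locus share sites and are not independent cases. Over all 4 loci the windows held 37 of the 19956 Med1 sites, 11 of the 8759 Carm1 sites, 12 of the 8078 Jmjd1c sites and 5 of the 8089 enhancer regions of the deposited files. For a site, the files hold its position only, without height or p-value.

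The sequence next to the TSS of each gene is the part that the promoter sites below cover or adjoin. The 250 bases upstream of the TSS of 4 of the genes are printed 5′ to 3′ in the direction of the gene, 3 of them with wide Med1 sites and Tubb3 with narrow ones. Capitals mark motifs found on either strand: the E-box CAGNTG, the NFI core TTGGC, the GC box GGGCGG, the CCAAT box spelled as its name, and the TATA element spelled TATAAA. SOX motifs were searched in several spellings, as ACAAAG, then ACAATG, and the longer forms CCATTGT and CCTTTGT. NFI core and CCAAT box overlap where the letters read ATTGGC or GCCAAT, and CCTTTGT holds the reverse of ACAAAG.
Tuba1a promoter, chr15:98783983-98784232, minus strand: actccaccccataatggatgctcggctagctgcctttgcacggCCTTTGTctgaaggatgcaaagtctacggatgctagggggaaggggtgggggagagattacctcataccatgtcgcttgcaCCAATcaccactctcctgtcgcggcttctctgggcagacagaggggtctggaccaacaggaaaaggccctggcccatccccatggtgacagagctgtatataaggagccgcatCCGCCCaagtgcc
Tuba1b promoter, chr15:98764997-98765246, minus strand: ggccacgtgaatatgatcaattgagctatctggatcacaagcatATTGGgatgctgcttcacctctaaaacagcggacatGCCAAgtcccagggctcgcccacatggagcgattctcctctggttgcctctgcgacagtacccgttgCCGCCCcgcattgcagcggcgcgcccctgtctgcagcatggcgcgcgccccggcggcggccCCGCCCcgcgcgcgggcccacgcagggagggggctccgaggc
Tubb2b promoter, chr13:34222224-34222473, minus strand: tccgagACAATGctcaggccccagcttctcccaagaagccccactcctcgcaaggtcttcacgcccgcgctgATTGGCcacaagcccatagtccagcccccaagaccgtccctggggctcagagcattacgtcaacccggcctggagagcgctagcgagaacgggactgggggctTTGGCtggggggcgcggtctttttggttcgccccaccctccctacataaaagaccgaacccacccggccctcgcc
Tubb3 promoter, chr8:125935074-125935323, plus strand: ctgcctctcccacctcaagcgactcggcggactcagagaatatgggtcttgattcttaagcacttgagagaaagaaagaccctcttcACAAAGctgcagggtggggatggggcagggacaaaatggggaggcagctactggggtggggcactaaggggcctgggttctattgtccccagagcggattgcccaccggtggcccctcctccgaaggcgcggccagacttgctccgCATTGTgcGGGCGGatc

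Counted over 300 bases, from 250 before to 50 after the TSS, a SOX motif was present in 4 of the 7 tubulin promoters, against 26.0% of 22362 promoters of protein-coding genes. A GC box was present in 5 of 7 (43.4% of all promoters), a CCAAT box in 5 of 7 (37.9%), an E-box in 3 of 7 (48.7%), an NFI core in 3 of 7 (47.1%) and a TATA element in 1 of 7 (13.4%). With 7 promoters these counts set none of the motifs apart from the background, and a match of letters is not a bound site. In Tuba1a the SOX match began at position -207 from the TSS, the CCAAT box at -126 and a GC box at -13. Tubb2b had an ATTGGC run at -178, where CCAAT box and NFI core overlap, a second NFI core at -75 and a SOX match at -244. Tubb3 had SOX matches at -163 and -17 upstream of its TSS and a GC box at -9. The TATAAA of Tubb2a stood at -29. GC content ran from 54.3% in Tubb5 to 69.0% in Tuba1b (median over all promoters 55.0%). The ratio of observed to expected CpG ran from 0.281 in Tuba1c to 1 in Tubb5 (median over all promoters 0.534), and 92.5% of promoters had a lower ratio than Tubb5.

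Med1 was found at the promoter of every one of the 7 tubulin genes, whereas Carm1 was found at none and Jmjd1c only at that of Tuba1b. A promoter was taken as 1.5 kb on either side of the TSS of any transcript of the gene, and a site counted when it overlapped it by 1 bp. Over all protein-coding genes, 44.2% had a Med1 site at the promoter, 11.3% a Carm1 site and 10.2% a Jmjd1c site. The low counts for Carm1 and Jmjd1c are to be read against these low rates and sets of 7 genes. The order of the Med1 list is not that of the genome. Across 3561 enhancer regions that hold 1 Med1 site, an earlier place in the list went with a higher Med1 minus IgG signal per kb (Spearman's rho -0.49, across regions of the same libraries), so the place is used here as a rank of significance inferred from the data. Among the first 5000 places were the promoter sites of 4 of the 7 genes, against 17.2% of all genes. These 4 genes, Tuba1a, Tuba1b, Tubb2b and Tubb5, also had the widest sites, and Tuba1c, Tubb2a and Tubb3 had narrow ones. Width and place are related over the whole Med1 list (Spearman's rho -0.65 across sites), so they are not independent measures.

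Tuba1a, the main alpha-tubulin gene of newborn neurons, had the widest promoter site, 4961 bp from 98781492 to 98786452, at place 179 of the list. It reached from 2470 bp upstream to 2490 bp downstream of the TSS and so was nearly centred on it. A further Med1 site of 4348 bp followed within the gene and beyond its 3′ end (place 3034), and together the sites covered 89.5% of the gene. Tuba1b, a broadly expressed alpha-tubulin gene, had a promoter site of 3712 bp at place 705, from 1597 bp upstream to 2114 bp downstream of the TSS, and a site of 3229 bp over its 3′ end at place 6320. Med1 sites covered 76.7% of Tuba1b. The Jmjd1c site of this promoter, 427 bp wide (98764382 to 98764808), was centred 401 bp downstream of the TSS and lay inside the Med1 site.

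Tuba1c, the third alpha-tubulin gene of the locus, looked different: its promoter site was 1233 bp wide at place 12121, and Med1 sites covered 9.93% of the gene. Of the genes with a Med1 promoter site, 11.1% had a narrower widest site than Tuba1c and 97.4% a narrower one than Tuba1a.

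The beta-tubulin genes showed the same spread. Tubb5, a beta-tubulin gene of dividing progenitors, had a site of 3713 bp over its TSS at place 505 and a second of 3416 bp at place 3410 that overlapped the promoter of a shorter transcript. Together they covered 96.9% of the gene. Tubb2b, which is strongly expressed in radial glia and young neurons, had a site of 3274 bp at place 914. It lay mostly upstream, from 2055 bp before to 1218 bp after the TSS, and covered 36.4% of the gene. Tubb2a, its close copy on the same strand, had a site of 1192 bp at place 5093, and 17.2% of the gene was covered.

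Tubb3 had the weakest promoter sites of the 7 genes by width and place. A site of 733 bp at place 18053 spanned the TSS, and a site of 854 bp at place 16763 lay from 1037 to 1890 bp downstream. Among genes with a Med1 promoter site, 1.35% had a narrower widest site, and Med1 covered 12.7% of the gene. Over all 9885 genes with a Med1 promoter site, the median width of the widest site was 1829 bp (quartiles 1467 and 2359 bp) and the median place was 6684 (quartiles 3053 and 11501). No tubulin gene fell between these quartiles of width: 4 were above them and 3 below. By place Tubb2a was between the quartiles, the 4 genes with wide sites were earlier, and Tuba1c and Tubb3 were later. Over all protein-coding genes the median share of the gene covered by Med1 was 0% and the upper quartile 4.67%, so all 7 genes were above the upper quartile. This background includes the genes without a Med1 promoter site, since 44.2% of all genes had one. Gene length ran from 3141 bp in Tuba1b to 10592 bp in Tubb3, and its part in the share was not tested. Tuba1c, Tubb2a and Tubb3 passed the quartile with narrow sites, so the share alone does not mark wide Med1 sites.

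**Figure D1:**
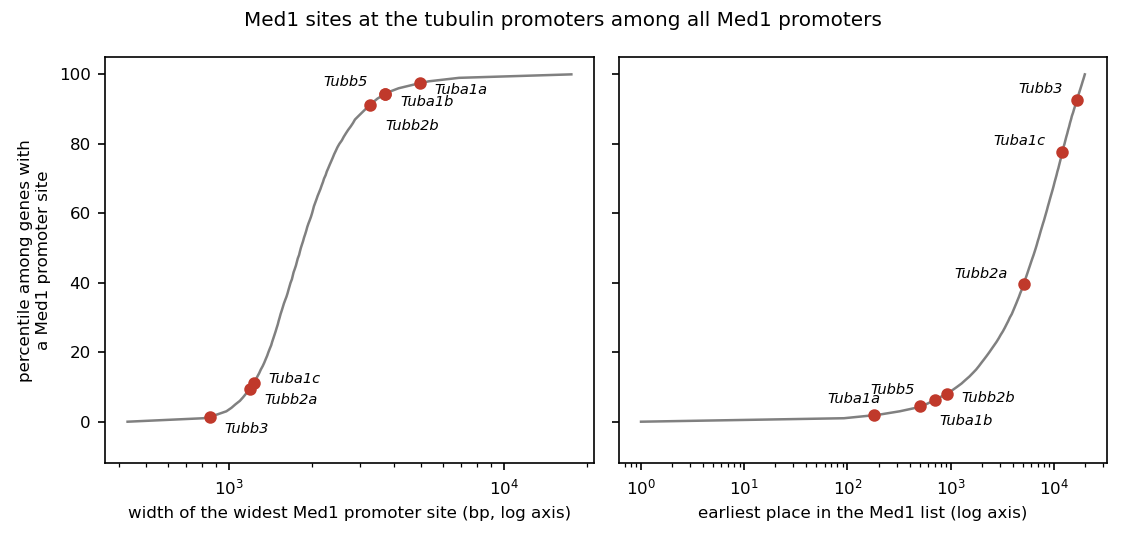
Med1 sites at the promoters of the 7 tubulin genes (red points) on the distribution over the 9885 genes with a Med1 promoter site (grey line). The left panel shows the width of the widest promoter site in bp and the right panel the earliest place of a promoter site in the Med1 list, both on log axes, against the percentile among these genes. Tuba1a, Tuba1b, Tubb2b and Tubb5 have widths from 3274 to 4961 bp, and Tuba1c, Tubb2a and Tubb3 from 854 to 1233 bp.

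Med1 was also dense around the genes. From the gene to 50 kb on each side there were 9 Med1 sites for Tuba1a, 8 for Tuba1b, 5 for Tuba1c, 4 for Tubb2a, 7 for Tubb2b, 5 for Tubb3 and 10 for Tubb5. The median over all protein-coding genes was 2 (quartiles 0 and 4), so Tubb2a was at the upper quartile and the other genes above it. Carm1 sites numbered 2 for Tuba1a, 2 for Tuba1b, 0 for Tuba1c, 3 for Tubb2a, 4 for Tubb2b, 1 for Tubb3 and 3 for Tubb5. Jmjd1c sites numbered 5 for Tuba1a, 5 for Tuba1b, 1 for Tuba1c, 2 for Tubb2a, 3 for Tubb2b, 0 for Tubb3 and 3 for Tubb5. For both factors the median over all genes was 0 and the upper quartile 1. The windows held between 2 and 7 TSSs of protein-coding genes (median over all genes 3, upper quartile 5). The number was 4 for Tuba1b, 5 for Tuba1c, 4 for Tubb3 and 7 for Tubb5, all above the median, and the part of gene density in the number of sites was not tested.

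**Figure D2:**
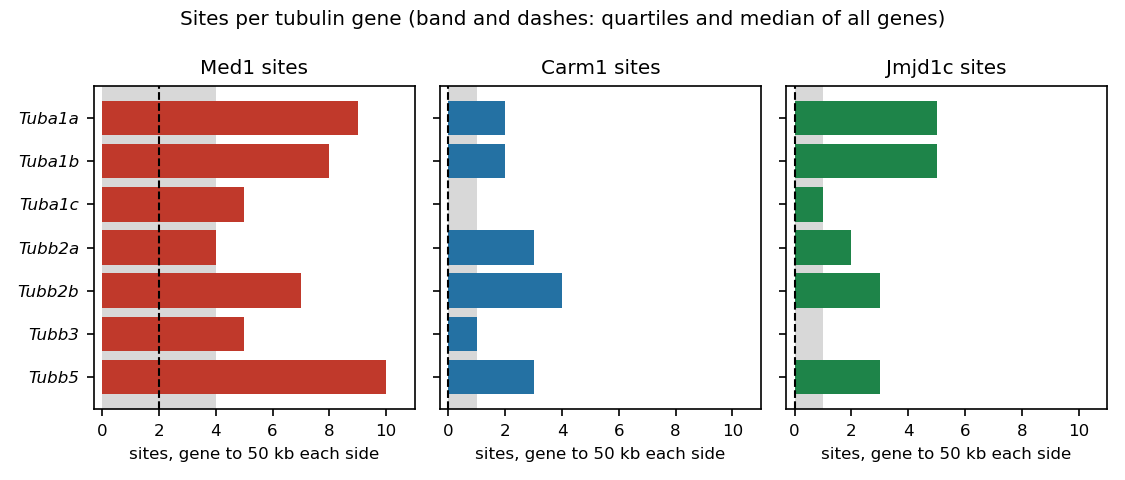
Number of Med1, Carm1 and Jmjd1c sites from each tubulin gene to 50 kb on each side (bars), with the median (dashed line) and quartiles (grey band) over all 22367 protein-coding genes. Med1 counts run from 4 for Tubb2a to 10 for Tubb5, and the 5 Jmjd1c sites of Tuba1a and of Tuba1b are the same sites.

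Of the 37 Med1 sites, 9 lay at promoters of the tubulin genes, 14 at promoters of other protein-coding genes only and 14 at no such promoter. Promoters of noncoding genes were not counted, and the noncoding gene 4930578M01Rik overlaps a Med1 site of the last group. Their median width was 2023 bp, against 1502 bp for the whole list, and 59.5% were among the first 5000 sites, as against 25.1% of the list. Over all genes with a Med1 promoter site, the widest such site had a median of 1829 bp. The part of promoter sites in these contrasts was not tested. The promoters of neighbours that held Med1 sites were those of Rhebl1, Lmbr1l, Prph, which encodes the intermediate filament protein peripherin, and Troap next to the Tuba1 genes, and of Bphl and Psmg4 next to the Tubb2 genes. Next to Tubb3 they were Tcf25, Mc1r and Def8, and next to Tubb5 Flot1, Ier3, Mdc1, Nrm, 2310014H01Rik and Dhx16. The site at Flot1 and Ier3, an immediate early gene, was 4259 bp wide and stood at place 146, earlier than any promoter site of a tubulin gene. Of the 11 Carm1 sites, 0 lay at a tubulin promoter, 4 at another promoter and 7 at none. Of the 12 Jmjd1c sites, 1 lay at a tubulin promoter, 3 at another and 8 at none. These 15 distal sites of Carm1 or Jmjd1c lay, with 1 exception among the Carm1 sites, in the enhancer regions described next.

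**Figure D3:**
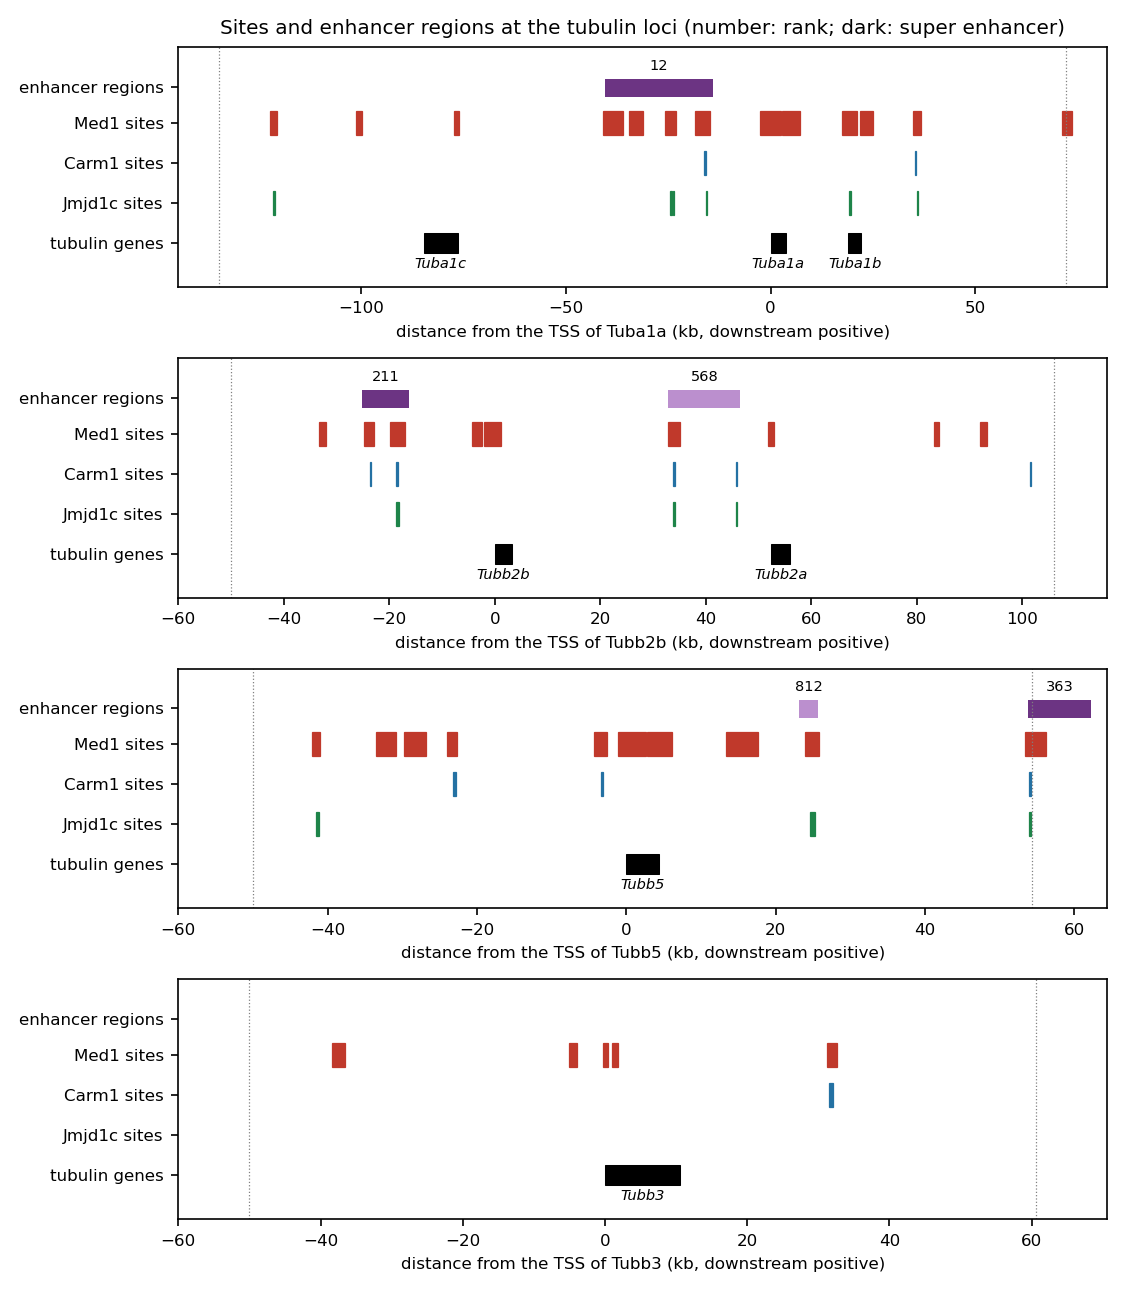
Maps of the 4 tubulin loci, with distance in kb from the TSS of Tuba1a, Tubb2b, Tubb5 or Tubb3 on the x axis (downstream positive) and the tubulin genes (black), Jmjd1c sites (green), Carm1 sites (blue), Med1 sites (red) and enhancer regions (purple, dark for super enhancers, with rank) as rows. Dotted lines mark the ends of the windows of 50 kb. The region of rank 12 lies between Tuba1a and Tuba1c, that of rank 363 reaches the Tubb5 window with its edge only, and Tubb3 has no region.

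Enhancer regions in the deposited table are stretches with Ep300 and H3K27ac, joined when they lie close together. The study's methods leave out bases next to a TSS, and the Med1 promoter sites above overlap none of the regions. Not every annotated TSS was left out, since the noncoding gene 4930578M01Rik lies whole inside the region of rank 12. Super enhancers (SEs) are the regions with the highest Med1 signal after subtraction of IgG, and 5.5% of the regions are called SEs. The deposited regions are 445 SEs and 7644 typical enhancers. The study reports the same number of SEs but more typical enhancers. An enhancer region was present within 50 kb of 6 of the 7 genes, against 35.9% of all protein-coding genes, and an SE within 50 kb of 5 genes, against 4.01%. These are 3 SEs, since Tuba1a, Tuba1b and Tuba1c share 1. With windows of 25 kb the count was 2 genes, against 2.53% of all genes. No region lay within 50 kb of Tubb3, and Tubb2a had a typical enhancer only. The gene nearest to a region is given below by TSS, among protein-coding genes without Gm-numbered symbols.

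The SE of the Tuba1 locus ranked 12 of 8089 regions. It extended over 26254 bp of chromosome 15, from 98798082 to 98824335, upstream of Tuba1a and upstream of Tuba1c, with its near edge 14100 bp from the TSS of Tuba1a, 33086 bp from that of Tuba1b and 35987 bp from that of Tuba1c. Signal was 23303 for Med1 and 5547 for IgG, or 887.6 and 211.3 per kb, a ratio of 4.20. The medians over the 445 SEs were 6862 for Med1, 1925 for IgG, 499 and 127.6 per kb, and 3.83 for the ratio. So the region exceeded the median SE in total Med1 signal, in density and in length (median 15196 bp), while 83.6% of SEs had a lower IgG signal per kb. The IgG signal of typical enhancers had a median of 172 per kb on chromosome 15, against 131.9 over all typical enhancers. Their Med1 signal was also higher there, with medians of 439.25 and 359.4 per kb. Of the 366 regions of chromosome 15, 36 were SEs, against 5.5% of all regions. The part of the chromosome in the rank was not tested. When the difference was scaled by the typical IgG signal of its chromosome, the region ranked 17. It was 1 place below a region nearest to Kif2c, a mitotic kinesin gene, on chromosome 4, with a Med1 signal of 21820, and 1 place above a region nearest to Sirt4, a mitochondrial sirtuin gene, on chromosome 5, with 17875. The Kif2c region was 14062 bp long and the Sirt4 region 3691 bp, so the Tuba1 region was the longest of the 3. The protein-coding gene nearest to its middle was Tuba1a, 27226 bp away. An annotated long noncoding RNA gene, 4930578M01Rik (98816396 to 98819712), lies inside the region and is nearer to that middle than Tuba1a.

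The SE held 4 Med1 sites of 3677, 2665, 3501 and 4782 bp, at places 457, 659, 982 and 317 of the list, all among the first 5000. Jmjd1c had 3 sites and Carm1 had 1 site there. The Carm1 site and a Jmjd1c site lay within the first Med1 site, with midpoints 16007 and 15587 bp upstream of the TSS of Tuba1a, and the other Jmjd1c sites lay within the second, 23688 and 24307 bp upstream. The other Med1 sites of the SE, nearer to Tuba1c, overlapped neither factor.

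Tubb2b had an SE of its own, at rank 211. It covered 8894 bp of chromosome 13 from 34238485 to 34247378, with its near edge 16262 bp upstream of the TSS, and its Med1 signal was 6114 against 1122 for IgG (687.4 and 126.1 per kb, ratio 5.45). Of all SEs, 85.6% had a lower ratio. The protein-coding gene nearest to its middle was Psmg4, a proteasome assembly factor, at 11902 bp, so the assignment to Tubb2b rests on the window and not on the nearest TSS. The first of its Med1 sites stood at place 302 and overlapped a Carm1 site (34240620 to 34240947) and a Jmjd1c site (34240390 to 34241016), and the second, at place 6668, overlapped a Carm1 site only. The regions at rank 210 and 212 were nearest to Map3k1, with a Med1 signal of 6757, and Tnrc6c, with 5826.

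The third SE, at rank 363 on chromosome 17 (35913022 to 35921493), lay downstream of Tubb5, with its near edge 53758 bp from the TSS and only its end inside the window. Signal was 4588 for Med1 and 803.1 for IgG (541.6 and 94.8 per kb, ratio 5.71). Ier3 was the protein-coding gene nearest to the middle of the region, 41372 bp away. The gene 4833427F10Rik (35909395 to 35917632), annotated as a processed transcript, covers that middle. Counted by midpoint the SE was outside the window, which left 4 genes with an SE. All 3 factors met within it, where a Carm1 site and a Jmjd1c site covered nearly the same bases inside the Med1 site. The neighbours in rank were regions nearest to Sipa1l1, with a Med1 signal of 4628, and 3100002H09Rik, with 4964.

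Among the typical enhancers, the region at rank 568 (chromosome 13, 34175658 to 34189307) lay 5781 bp upstream of Tubb2a, with signal of 4043 for Med1 and 1213 for IgG. Per kb these were 296.2 and 88.9, and 37.5% of all regions had a lower Med1 density. It had a site of all 3 factors at its far end, 18426 bp upstream of Tubb2a by the middle of the Med1 site, and a Carm1 site together with a Jmjd1c site 6476 and 6528 bp upstream that overlapped no Med1 site. The region at rank 812 (chromosome 17, 35949533 to 35952113) was short and dense. It lay 23138 bp downstream of the TSS of Tubb5, held 1086 of Med1 signal per kb and 221.5 of IgG over 2580 bp, and 96.2% of all regions had a lower Med1 density. It held a Med1 site at place 1320 and a Jmjd1c site.

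**Figure D4:**
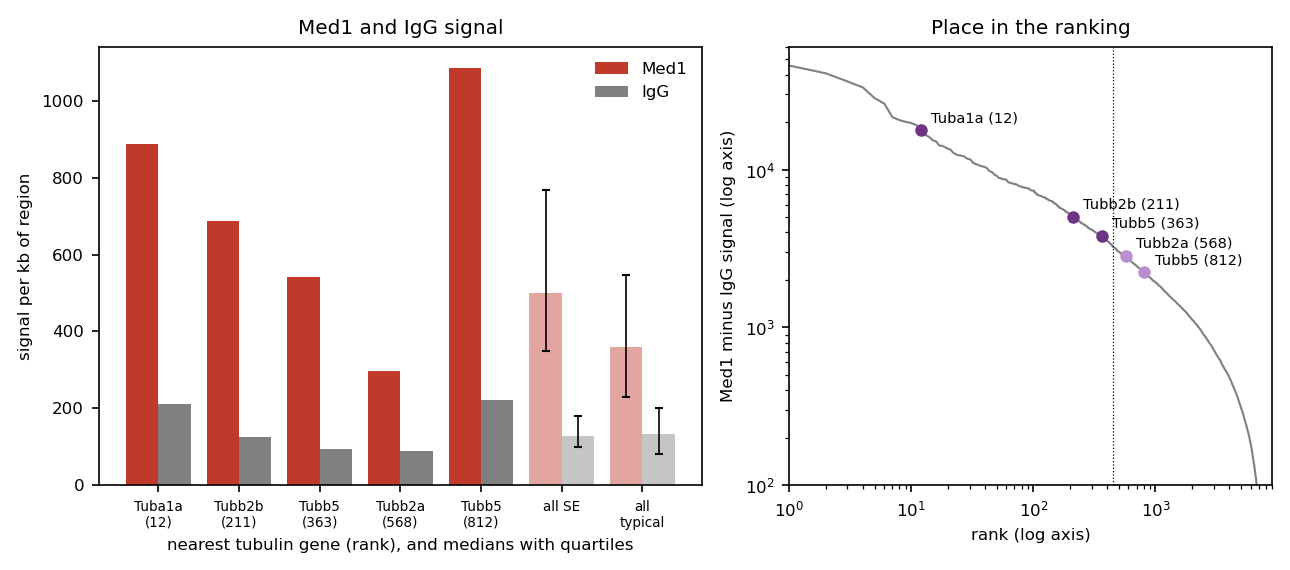
Left panel, Med1 (red) and IgG (grey) signal per kb in the 5 enhancer regions, named by the nearest tubulin gene with the rank in brackets, beside the medians over all SEs and all typical enhancers (pale bars, with quartiles as error bars). Right panel, Med1 minus IgG signal against rank for all regions with both axes on a log scale (grey line), the 5 regions as points and the lower limit of SEs as a dotted line. Med1 density was 1086 per kb in the region of rank 812 and 296.2 per kb in that of rank 568.

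Rank follows total signal, and by density the order changed. Ranked by Med1 minus IgG per kb, the region of rank 812 came first of the 5, at 263, followed by the Tuba1 region at 564, the Tubb2b region at 919, the region of rank 363 at 1542 and that of rank 568 at 4456. No read totals were at hand, and the counting error of each signal is therefore unknown.

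The sequence at the centre of Carm1 and Jmjd1c sites in these regions is printed to show which motifs they hold, as 200 bases of the plus strand of mm9 around the midpoint of the site, with E-box, NFI core and SOX motifs in capitals as above.
Carm1 site in the Tuba1 SE, chr15:98799890-98800089, plus strand: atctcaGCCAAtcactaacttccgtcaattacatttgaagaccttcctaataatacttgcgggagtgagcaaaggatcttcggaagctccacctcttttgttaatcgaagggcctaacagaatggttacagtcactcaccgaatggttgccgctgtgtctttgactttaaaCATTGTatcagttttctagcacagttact
Jmjd1c site in the Tuba1 SE, chr15:98799470-98799669, plus strand: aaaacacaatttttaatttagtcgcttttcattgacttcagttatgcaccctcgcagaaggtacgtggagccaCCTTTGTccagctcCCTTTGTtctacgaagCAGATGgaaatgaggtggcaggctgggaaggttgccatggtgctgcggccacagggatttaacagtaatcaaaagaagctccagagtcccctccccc
Carm1 site in the Tubb2b SE, chr13:34240684-34240883, plus strand: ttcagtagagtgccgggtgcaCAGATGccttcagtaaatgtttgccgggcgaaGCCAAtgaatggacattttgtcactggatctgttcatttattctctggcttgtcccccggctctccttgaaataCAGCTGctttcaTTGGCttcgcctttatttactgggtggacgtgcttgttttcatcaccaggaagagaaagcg
Carm1 site without Med1 upstream of Tubb2a, chr13:34176254-34176453, plus strand: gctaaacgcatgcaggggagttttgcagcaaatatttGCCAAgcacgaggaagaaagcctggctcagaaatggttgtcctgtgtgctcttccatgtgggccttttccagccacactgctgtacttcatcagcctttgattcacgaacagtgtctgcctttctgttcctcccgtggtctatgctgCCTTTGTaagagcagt

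The Carm1 site of the Tubb2b SE held an E-box at either side of its centre and a pair of NFI cores. The Jmjd1c site of the Tuba1 SE held CCTTTGT in a pair of copies and an E-box. Over the 11 Carm1 sites of the windows, 5 held an E-box (47.4% of the whole Carm1 list), 5 an NFI core (45.7%) and 5 a SOX motif (31.4%). Over the 12 Jmjd1c sites, 6 held an E-box (52.9% of the Jmjd1c list), 3 an NFI core (48.8%) and 7 a SOX motif (34.0%). Several of these sites overlap each other and share bases, and on so few sites the SOX counts above and the NFI count of Jmjd1c below the share of the list are given as descriptions only.

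Carm1 and Jmjd1c sites near the tubulin genes mostly lay within Med1 sites. Of the Med1 sites, 14 of 37 overlapped a Carm1 or a Jmjd1c site (37.8%, 95% Wilson interval 24.1 to 53.9%), against 36.5% of the whole list. Of the Carm1 sites, 9 of 11 overlapped a Med1 site (81.8%, interval 52.3 to 94.9%), against 56.4%, and of the Jmjd1c sites 11 of 12 (91.7%, interval 64.6 to 98.5%), against 65.8%. The intervals cover the number of sites only and treat sites as independent, although some share a Med1 site or an enhancer region. For all 3 factors the interval includes the share of the list, and nothing is concluded from this. The Med1 sites here were wider than those of the list, as given above, and the part of width in these shares was not tested. With midpoints within 200 bp of each other in place of overlap, the shares were 36.4% for Carm1 (32.6% of the list) and 66.7% for Jmjd1c (40.5%). With only the first 5000 Med1 sites, 54.5% of the Carm1 sites (22.5% of the list) and 75% of the Jmjd1c sites (23%) overlapped Med1. Carm1 and Jmjd1c overlapped each other at 4 places, at the SE of Tubb2b, at both ends of the region upstream of Tubb2a and at the SE of rank 363.

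Because tubulin genes are near copies of each other and the genome holds many tubulin pseudogenes, reads from their coding sequence can align at several places. The authors' alignment used a seed of 36 bases, in which mismatches were allowed, and kept the best alignment only. Exact copies alone are counted below, so a window found once can still have near copies. The share of 36-base windows that occur once in mm9, counting exact matches on both strands, was 61.3% over Tuba1a, 46.1% over Tuba1b, 79.8% over Tuba1c, 70.4% over Tubb2a, 61.3% over Tubb2b, 87.7% over Tubb3 and 97.4% over Tubb5. In the largest coding exon it was 4.88% in Tuba1a, 3.82% in Tuba1b, 7.47% in Tuba1c, 19.7% in Tubb2a, 20.5% in Tubb2b, 83.8% in Tubb3 and 98.0% in Tubb5. The promoters were mostly unique, with 92.6% to 98.6% of windows occurring once within 1.5 kb on either side of the TSS.

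The Med1 sites of Tuba1a and of Tuba1b broke off over the last coding exon. The gap in Tuba1a was 391 bp long (98781101 to 98781491, of which 345 bp were coding), and 9.83% of its windows occurred once, with a median of 7 occurrences. The gap in Tuba1b was 731 bp long (98762151 to 98762881, all coding), and 5.17% of its windows occurred once, with a median of 8. Of the window matches of the Tuba1b gap, 1612 lay in no annotated gene, 535 in Tuba1c and 405 in Tuba1a. Matches lay in 4 annotated pseudogenes: 529 in Gm14150, 470 in Gm17383, 440 in Gm5620 and 3 in Gm14892. In all 8 protein-coding genes held matches, Tuba1b itself among them, and of those that are not tubulin genes Arid1b had the most, 230. Tubb5 also had a gap within its last coding exon, 136 bp long, and there 100% of windows occurred once, as in the intronic gap of 543 bp between the Tubb3 sites. So 2 of the 4 gaps lay in repeated coding sequence and 2 in unique sequence, and the part of alignment in the shape of these sites was not tested. Over the Med1 sites themselves, the share of windows found once was lowest in the downstream site of Tuba1a (78.8%) and the promoter site of Tuba1b (80.5%), and was 90.1% in the promoter site of Tuba1a. In every 20th Med1 site of the list (998 sites) the median was 100%, the lower quartile 97.7%, and 2.40% of sites were below 80%. All 11 Carm1 sites and 11 of the 12 Jmjd1c sites were unique throughout, with 97.4% at the Jmjd1c site of Tuba1b as the exception, and in the 5 regions the share ran from 93.7 to 97.8%.

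**Figure D5:**
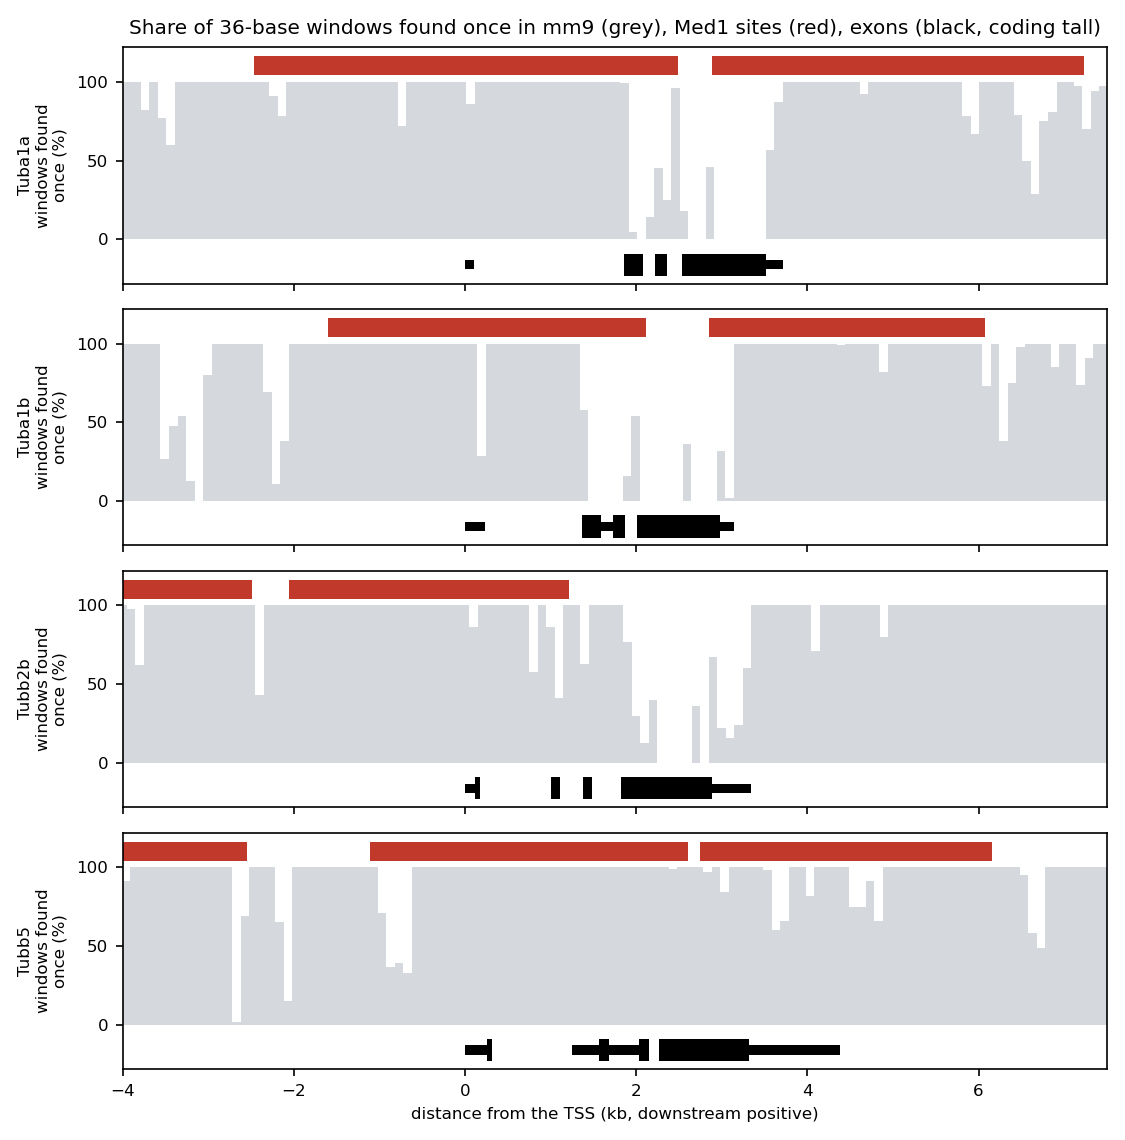
Share of 36-base windows that occur once in mm9, in bins of 100 bp (grey area, percent), along Tuba1a, Tuba1b, Tubb2b and Tubb5, against the distance from the TSS in kb (downstream positive). Red bars are Med1 sites and black boxes exons, with coding parts taller. The gaps between Med1 sites of 391 bp in Tuba1a and 731 bp in Tuba1b fall in coding exons with few unique windows, while the gap of 136 bp in Tubb5 falls in unique sequence.

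The other genes of the tubulin pathway are given as counts against the same background as above (44.2% of all genes with Med1 at the promoter, 11.3% with Carm1, 10.2% with Jmjd1c and 4.01% with an SE within 50 kb). Among the 13 other tubulin genes, 5 had Med1 at the promoter, 3 Carm1 and 3 Jmjd1c, and 1 had an SE within 50 kb, so the Med1 count is near the background. Tubb4b, a broadly expressed beta-tubulin, stood at place 781 and Tubb6 at 394, both among the first 5000 sites. Tubg1, the gamma-tubulin of microtubule nucleation, stood at 3607. Tubd1 (delta-tubulin) and Tube1 (epsilon-tubulin), both of centrioles, had all 3 factors at their promoters, and Tubd1 lay within 50 kb of an SE at rank 375. The Med1 promoter site of Tubd1 stood at place 2544 and that of Tube1 late in the list, at 16654. Of all 22367 protein-coding genes, 745 had all 3 factors at the promoter. Genes of other alpha and beta isotypes, such as Tuba3a, Tuba4a, Tuba8, Tubb1 and Tubb4a, had no Med1 promoter site.

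The lists that follow are read against the background of 44.2% for Med1, 11.3% for Carm1, 10.2% for Jmjd1c and 4.01% for an SE. For all 3 factors at the promoter it is 745 of 22367 genes. Of 18 genes for the folding of tubulin (the chaperonin CCT, prefoldin and the tubulin cofactors), 16 had Med1 at the promoter, 4 Carm1 and 6 Jmjd1c, with all 3 factors at Tbcc and Tbcd and no SE within 50 kb of any. Of 10 genes for enzymes that modify tubulin, 9 had Med1, 2 Carm1 and 0 Jmjd1c, and Vash1, a tubulin carboxypeptidase, lay within 50 kb of an SE at rank 202. Of 28 genes of microtubule-associated proteins, 19 had Med1, 6 Carm1 and 5 Jmjd1c. All 3 factors met at Map4, Clasp2 and Clip1, and Clip2, a protein of growing microtubule ends, lay within 50 kb of an SE at rank 149.

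The labelled cell type was checked by markers. Med1 was at the promoter of all 10 NSC markers, 9 of them with one of the first 5000 sites. It was also at the promoter of 1 of 9 neuron markers, 3 of 4 astrocyte markers, and 0 of 4 markers each of oligodendrocytes, microglia and endothelium. Over all genes these shares were 44.2% with Med1 at the promoter and 17.2% with one of the first 5000 sites. In a population of cells, a site present in few cells and a weaker site in all of them cannot be told apart.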

How the data were processed

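Chromatin of untreated NS-5 cells was sequenced after precipitation with Med1, Carm1, Jmjd1c or IgG. Per the submitters' notes and the study's methods, Bowtie 0.12.7 placed the reads on mm9 (36-base seed, only the best alignment kept), the authors removed duplicates (Picard 1.81) and called sites with MACS 1.4.2 against IgG. The thresholds of the Carm1 and Jmjd1c lists may differ, and no read totals were at hand, so depth is unknown. The deposited region table holds signal, read density per bp multiplied by length, computed by the authors with ROSE. The deposited density is multiplied by a length that is 1 bp longer for SEs than for typical enhancers, and the per kb values here undo this.

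Genes came from GENCODE vM1 on the same build. Sites were assigned by overlap of 1 bp with promoters of protein-coding genes (1.5 kb each way from a TSS) and with windows of 50 kb. Symbols that differ in the annotation were matched through synonyms of a GRCm38.p6 gene table, of which no coordinates were used. Promoter bases were read from mm9. Functions were tested on simulated data. The genes named are the 7 members, genes of 4 pathway lists with all 3 factors at the promoter or an SE within 50 kb, nearest neighbours of sites, and regions 1 place above or below in rank; Tubb4b, Tubb6, Tubg1 and the tubulin genes without Med1 were named after their values were seen. Members and lists were chosen with earlier results of these data known. Work was done in Python 3.11.15 with pysam 0.24.0 for sequences, matplotlib 3.10.9 for plots, and numpy 2.4.6, pandas 2.3.3 and scipy 1.17.1.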

Additional observations from a re-analysis of the deposited data

How the results depend on the processing

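Of 53 alternatives, 43 left a count or rank within 1.5 times its main value, or a share within its Wilson interval, and 10 moved it. These limits are wide on so few sites. The share of Jmjd1c sites that met Med1 counted as unmoved at 66.7% by midpoints, against 91.7%. That of Carm1 sites counted as unmoved at 54.5% with the first 5000 Med1 sites, against 81.8%. Some alternatives could hardly move their value, so the tally does not measure robustness. With the first 5000 Med1 sites, 4 tubulin genes had a Med1 promoter site (17.2% of all genes), and 22 Med1 sites remained in the windows. With Med1 sites of median width or more, 4 genes had one (32.0% of all genes). With windows of 25 kb, 2 genes had an SE (2.53% of all genes). With midpoints within 200 bp, 36.4% of Carm1 sites met Med1. By Med1 minus IgG per kb, the regions of rank 12, 211, 363, 568 and 812 ranked 564, 919, 1542, 4456 and 263. All 7 genes kept a Med1 promoter site with midpoints, with narrower promoters, or with the 5′ end of the gene only. Each of these settings is stricter than the main one, so the number of genes with a Carm1 site could not rise. No paired analysis was possible because each antibody had 1 sample. The limits of these values are the single sample for each antibody, the unknown depth, the lack of heights in the site lists, and the repeated coding sequence of the Tuba1 genes.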
